A study of Mus musculus with 74 samples.

Results

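Ceramidases and the enzymes and receptors of sphingosine metabolism were followed between the primary mammary tumor (PT) and the lung metastasis (Lung met) in mouse models of breast cancer. The group comprised 10 genes, namely the ceramidases Acer2, Acer3 and Asah1, the kinases Sphk1 and Sphk2, the degrading enzymes Sgpl1 and Sgpp1, and the receptors S1pr1, S1pr2 and S1pr3. Each was taken by its symbol, which occurred once per table, from tables of 17363 to 19321 genes. The group was chosen by earlier results of these same tables, in which the Lung met over PT ratio of Acer2 stood out, so its values are given as a description and carry no test. All 10 genes had means in 4 of the 5 tables used, and Sphk1 was listed without a value in SEAGN, which left 9 there.

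RNA-seq of whole tissue pieces covered 74 samples. The FVB Her2 model (MMTV-Her2) had 6 PTs and 6 Lung mets and the FVB C3Tag model 7 and 7, where Her2 was expressed from the mammary tumor virus promoter and the SV40 T antigen from the C3(1) promoter. In the PyMT-F1 crosses, FVB males carrying MMTV-PyMT were bred to females of another strain, and BALB, SEAGN and AKR had 6 PTs and 6 Lung mets each. The MMTV-Myc model had 6 of each, and no level or ratio of it was analysed here. The animals were tumor-bearing females, and the RNA of a PyMT PT came from the tumors of 1 animal combined. By the study's methods, tumors of Her2, C3Tag and Myc animals with single lesions were resected before these animals aged further. The sample names do not say which PTs these were. Strains follow the sample names, because the genotype label gave AKR/J for samples named after other strains. The table deposited under AKR is called AKR-named here, since its fold changes at the genes looked up are those a supplementary list of the study gives for its C57BL/6J cross, and its strain is not settled.

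The authors deposited 1 least-squares mean of the normalized counts per gene and tissue, with no error and no sample values, so the spread between animals and the depth per sample are unknown. Each comparison below is a ratio of 2 such means, written as log2 of Lung met over PT, and whether it exceeds the spread between animals was not tested. Each table was normalized on its own, so a level is read within its table. In bulk tissue, fewer cells of a type and less RNA per cell cannot be told apart.

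Ceramide is the backbone of the complex sphingolipids. Ceramidases cut it into sphingosine and a fatty acid, sphingosine kinases phosphorylate sphingosine to sphingosine-1-phosphate (S1P), and S1P is either returned to sphingosine by phosphatases or cleaved irreversibly by S1P lyase. S1P outside the cell acts through G protein-coupled receptors that govern lymphocyte exit from lymphoid organs and the barrier of blood vessels.

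Acer2, the alkaline ceramidase of the Golgi, lies on chromosome 4 from 86874396 to 86934822 on the plus strand in GENCODE M21 on GRCm38. S1pr1 lies on chromosome 3 from 115710433 to 115715072 on the minus strand, and Sphk1 on chromosome 11 from 116530925 to 116536674 on the plus strand. The sequence upstream of Acer2 is printed because its group means were at least 2-fold higher in Lung met in each of the 5 tables. It covers chr4:86874164-86874347 on the plus strand of GRCm38.p6, 184 bases from RefSeq that end before the first annotated start of the gene, with GC boxes (GGGCGG, or CCGCCC for the other strand) in capitals.
Acer2: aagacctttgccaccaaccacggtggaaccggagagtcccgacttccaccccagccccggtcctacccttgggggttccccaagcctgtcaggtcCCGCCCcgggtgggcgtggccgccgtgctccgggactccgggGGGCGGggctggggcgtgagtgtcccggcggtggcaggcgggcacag
The window held 2 GC boxes and 16 CpG dinucleotides, and 73.4% of its bases were G or C. The first 184 bases held a GC box in 21.7% of the 32851 promoter entries of the RefSeq table. An entry has 250 bases before its start, so in other genes this window may end further from the first start than in Acer2. This is a description of the letters, and binding was not measured.

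Across the tables, 9 of 49 member values lay at least 2-fold higher in Lung met and none lay 2-fold lower. In Her2, Acer2 alone of 10 members was past 2-fold, where 2.38% of all genes were 2-fold higher and 1.43% 2-fold lower. In C3Tag, 3 of 10 members were 2-fold higher (Acer2, Sphk1 and S1pr1), against 7.42% of all genes higher and 1.7% lower. Once the means were divided by their table sums, 10 of 10 were past 2-fold. That scaling raised every C3Tag gene by 0.80, to a median log2 ratio of 0.81 over all genes. The share of all genes past 2-fold after it was not computed. In BALB it was again Acer2 alone of 10, against 2.26% of genes higher and 2.4% lower. In SEAGN, Acer2 and S1pr1 were 2 of the 9 members with values, against 2.86% higher and 3.22% lower. In AKR-named, the same pair were 2 of 10, against 7.31% higher and 1.73% lower. Since Acer2 took part in choosing the group, its share in these counts is no evidence about the group. The median log2 ratio of the members was 0.12 in Her2, 0.32 in C3Tag, 0.18 in BALB, 0.13 in SEAGN and 0.20 in AKR-named, beside -0.0013, 0.0091, 0.030, 0.016 and 0.0072 over all genes.

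**Figure D1:**
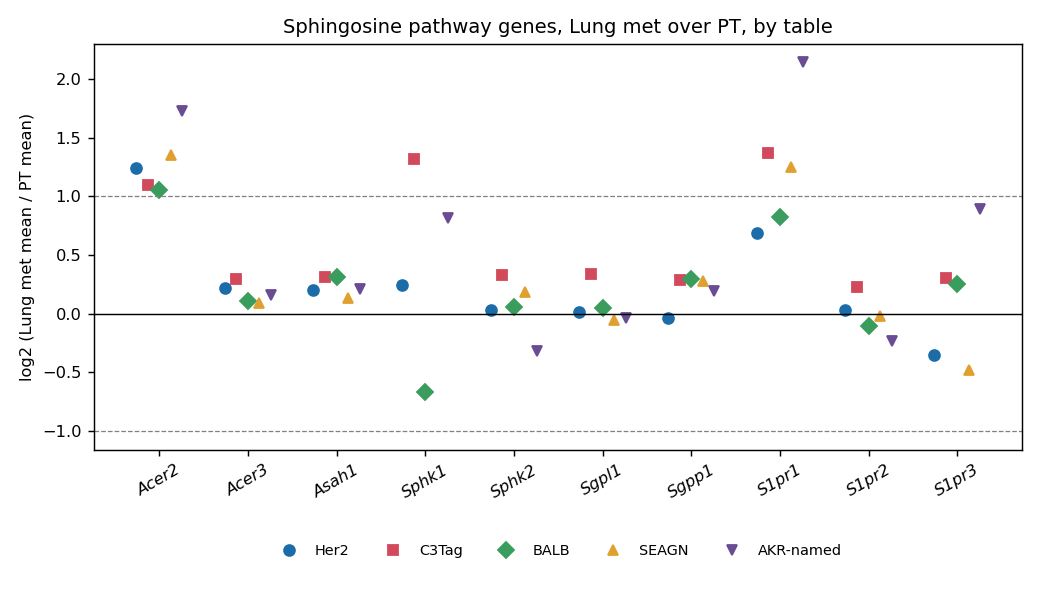
Log2 of the Lung met mean over the PT mean (vertical axis) of the 10 genes (horizontal axis) in 5 tables, 1 symbol per table, with dashed lines at 2-fold. The 5 Acer2 symbols lie between 1.06 and 1.73, those of Acer3 and Asah1 between 0.09 and 0.31, and those of Sphk1 spread from -0.67 to 1.32.

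Acer2 was higher in Lung met in 5 of 5 tables. Its mean was 436 in PT and 1033 in Lung met of Her2, a ratio of 2.37, and 548 and 1176 in C3Tag, a ratio of 2.15. In BALB the means were 177 and 370, a ratio of 2.08, and in SEAGN 160 and 407, a ratio of 2.55. AKR-named had the widest step, from 717 to 2380, a ratio of 3.32. Its log2 ratio thus ranged from 1.06 to 1.73 with a median of 1.24. The gene sat near the middle of the PT levels, above 49.8% to 58.4% of genes, and above 68.2% to 85.6% of genes in Lung met. Its log2 ratio exceeded that of 98.3% of genes in Her2, 93.5% in C3Tag, 98.0% in BALB, 98.4% in SEAGN and 97.2% in AKR-named. BALB lay closest to the 2-fold line.

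**Figure D2:**
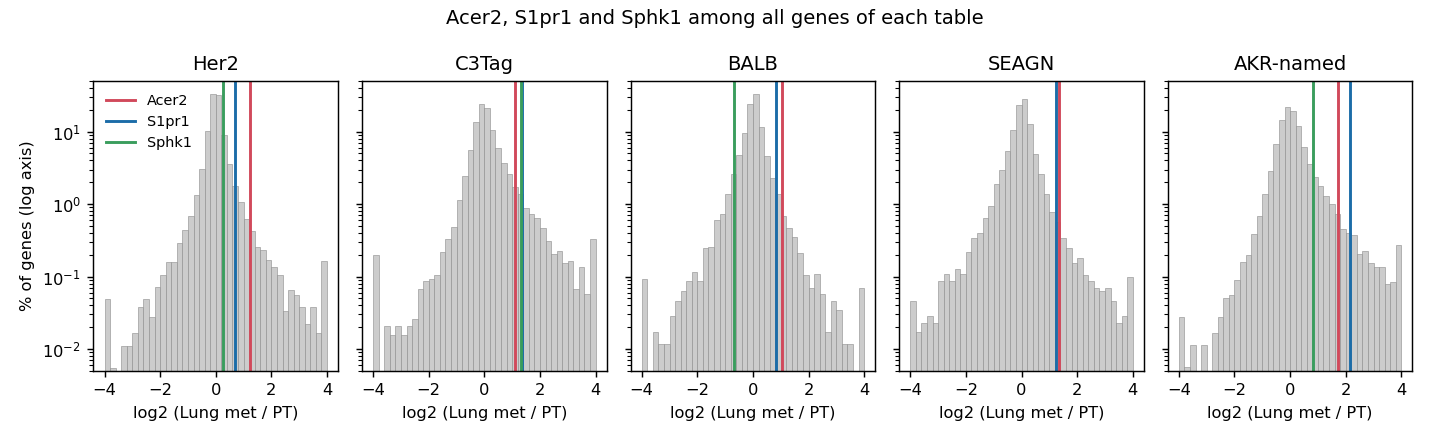
Distribution of log2 (Lung met / PT) over all genes of each table (grey bars, percent of genes on a log axis, the end bars holding the genes beyond the axis), with lines for Acer2, S1pr1 and Sphk1. Acer2 lies in the right tail in all 5 panels, above 93.5% of genes in C3Tag and above 98.4% in SEAGN, and in C3Tag the Sphk1 line (1.32) lies against the S1pr1 line (1.37).

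The other ceramidases of the group were close to level, and Asah2, a ceramidase outside it, had ratios of 1.04 (AKR-named) to 1.38 (C3Tag). Acer3, also an alkaline ceramidase, had ratios of 1.17 in Her2, 1.22 in C3Tag, 1.08 in BALB, 1.07 in SEAGN and 1.12 in AKR-named. Asah1, the acid ceramidase of the lysosome, had 1.15, 1.24, 1.24, 1.10 and 1.16 in the same order. Both genes were thus slightly higher in Lung met in each of the 5 tables, and their highest log2 ratios (0.29 and 0.31) lay below the lowest of Acer2. Asah1 was the most abundant of the 3 per length of transcript, at 819 per kb in Her2 PT against 103 for Acer2 and 57.2 for Acer3. Levels per kb use the longest coding transcript in GENCODE M21, which is 4216 bases for Acer2, 11340 for Acer3 and 2773 for Asah1, and which transcripts these tissues use was not analysed here.

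As a share of the summed per-kb level of the group's 3 ceramidases, without Asah2, Acer2 went from 10.6% in PT to 19.5% in Lung met of Her2. In C3Tag it went from 15.2% to 23.7%. In BALB it went from 18.5% to 27.9%, in SEAGN from 17.5% to 33.1% and in AKR-named from 13.2% to 30.4%. Asah1 held the largest share in both tissues of each table.

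The kinases behaved differently from table to table. Sphk1, the cytosolic kinase, had means of 366 in PT and 915 in Lung met of C3Tag, a ratio of 2.50. AKR-named went from 517 to 912, a ratio of 1.76, and Her2 from 523 to 621, a ratio of 1.19. BALB was the one table with Sphk1 lower in Lung met, at 90.8 against 144 in PT, a ratio of 0.630. The log2 ratio of Sphk1 spanned 1.99 between tables, the widest range of the 10 members. In BALB only 5.39% of genes had a lower log2 ratio, and in C3Tag 95.2% did. Sphk2, the kinase found in the nucleus and mitochondria, stayed between 0.803 (AKR-named) and 1.26 (C3Tag). The difference in Sphk1 between tables was not tested.

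Per length of transcript, Sphk1 made up 38.5% of the summed level of both kinases in Her2 PT and 42.1% in Lung met. The share went from 38.2% to 55.1% in C3Tag from 37.4% to 56.8% in AKR-named, and in BALB from 32.0% to 22.1%. Shares over 50% for Sphk1 rest on its shorter transcript, 2659 bases against 3548, since the deposited Lung met means of Sphk1 were below those of Sphk2 in C3Tag (915 against 993) and AKR-named (912 against 927).

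The degrading enzymes showed little difference between tissues. Sgpl1, the S1P lyase of the endoplasmic reticulum, had ratios of 1.01 in Her2, 1.26 in C3Tag, 1.04 in BALB, 0.962 in SEAGN and 0.976 in AKR-named. Sgpp1, which returns S1P to sphingosine, had 0.975, 1.22, 1.23, 1.22 and 1.14 in the same order. The signs of Sgpl1 in Her2 and BALB, and of Sphk2 and S1pr2 in Her2, turned when the means were divided by their table sums. Both genes ranked high within each table, with PT means above 76.9% to 90.8% of all genes.

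**Figure D3:**
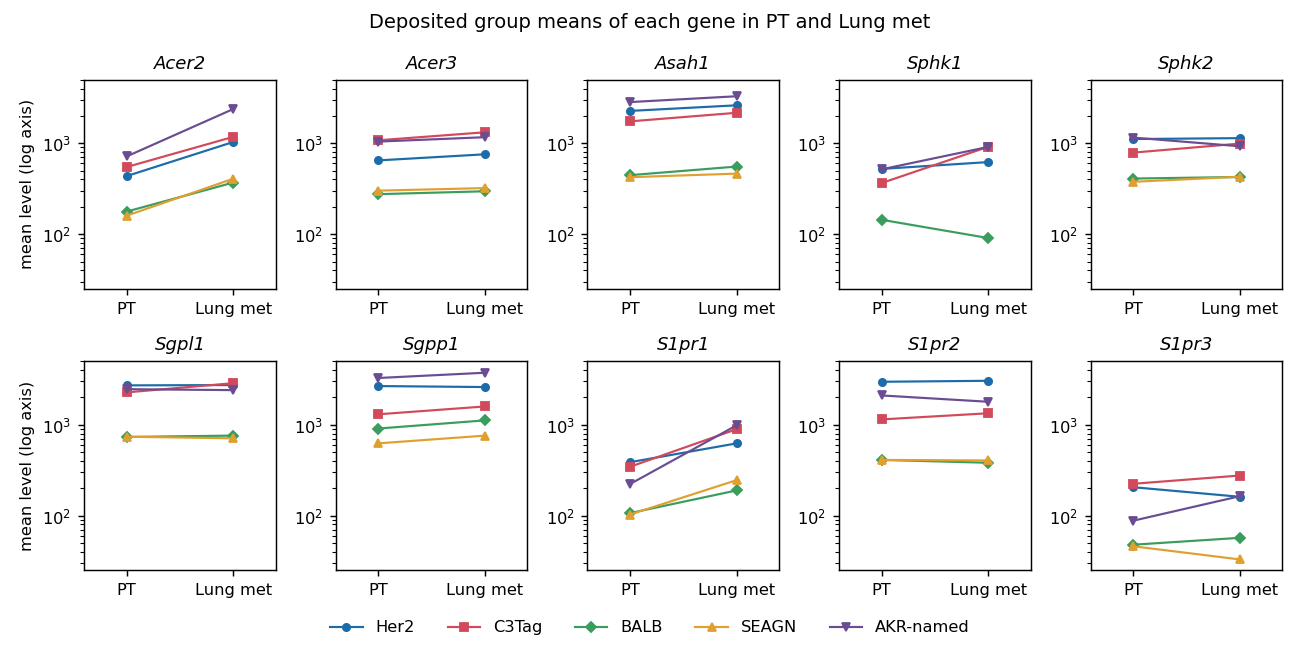
Deposited group mean of each gene in PT and Lung met (log axis, same range in every panel), 1 line per table, where levels are comparable only within a table. Acer2 and S1pr1 slope upward in all 5 tables, Sphk1 slopes downward in BALB and has no line for SEAGN, and S1pr3 slopes downward in Her2 and SEAGN.

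Among the receptors, S1pr1, the receptor of endothelium and lymphocytes, was higher in Lung met in 5 of 5 tables. Its means went from 223 to 984 in AKR-named, a ratio of 4.42, and from 345 to 892 in C3Tag, a ratio of 2.59. SEAGN went from 103 to 246, a ratio of 2.39. BALB and Her2 stayed under 2-fold, with 107 and 189 in BALB, a ratio of 1.77, and 387 and 624 in Her2, a ratio of 1.61. Its log2 ratio exceeded that of 95.5% of genes in C3Tag, the lowest such share, and of 98.2% in AKR-named, the highest. S1pr2 did not follow it, with ratios of 1.03 in Her2, 1.17 in C3Tag, 0.930 in BALB, 0.987 in SEAGN and 0.852 in AKR-named. S1pr3 varied most after Sphk1 and S1pr1, from 0.717 in SEAGN and 0.785 in Her2 to 1.19 in BALB, 1.23 in C3Tag and 1.86 in AKR-named. S1pr3 was also the least abundant member per kb in each group, with 7.39 in SEAGN Lung met and 10.3 in SEAGN PT.

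S1pr2 held the largest share of the summed per-kb receptor level in each PT, from 52.3% in C3Tag to 77.9% in AKR-named. In Lung met S1pr1 held the largest per-kb share in 4 of the 5 tables, with 51.9% in C3Tag, 46.2% in BALB, 53.3% in SEAGN and 50.5% in AKR-named, from 33.1%, 31.9%, 31.2% and 17.4% in PT. In BALB the margin over S1pr2 was narrow, 46.2% against 44.3%. In Her2, S1pr1 went from 19.9% to 28.6% and S1pr2 stayed ahead at 66.4%. This order depends on the transcript lengths, 3046 bases for S1pr1 and 6394 for S1pr2. Without division by length the Lung met mean of S1pr2 was above that of S1pr1 in all 5 tables, for example 1337 against 892 in C3Tag and 1789 against 984 in AKR-named.

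**Figure D4:**
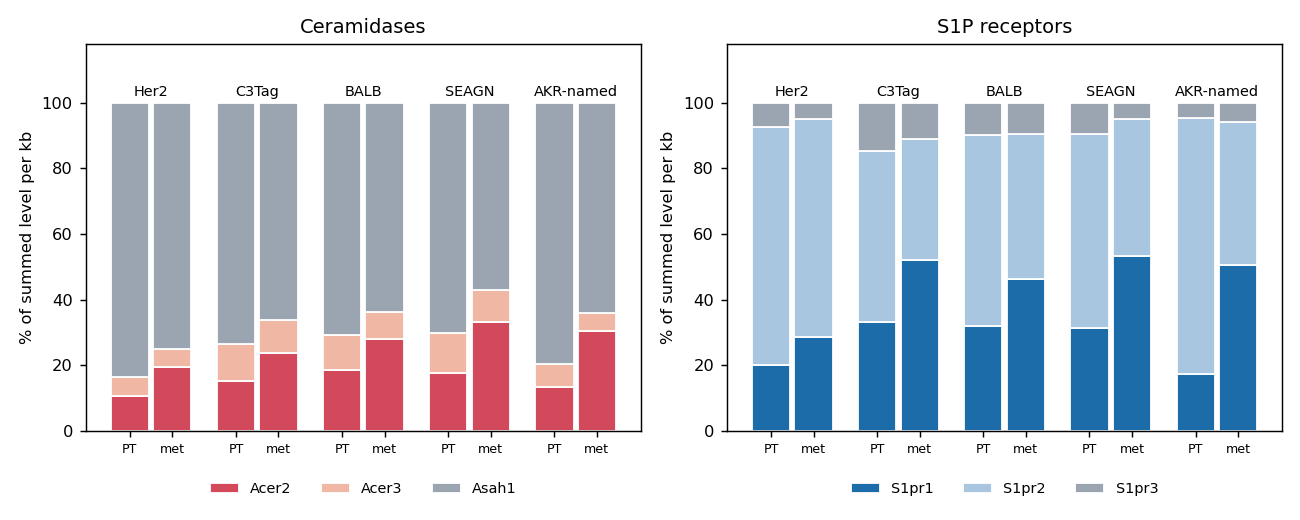
Share (percent of the summed level per kb of transcript) of each member ceramidase (left) and each member S1P receptor (right) in PT and Lung met (met) of the 5 tables. The Acer2 segment is larger in Lung met in every table, for example 33.1% against 17.5% in SEAGN, and the S1pr1 segment passes the S1pr2 segment in 4 tables, an order that does not hold without division by transcript length.

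Acer2 did not stand alone among the members in each model. It had the highest log2 ratio of the members in Her2, BALB and SEAGN. S1pr1 and Sphk1 lay above it in C3Tag, and S1pr1 did in AKR-named. Set beside S1pr1, Acer2 was higher by 0.56 on the log2 scale in Her2, 0.23 in BALB and 0.09 in SEAGN, and differed by -0.27 in C3Tag and -0.41 in AKR-named. Within the ceramidases the gap was wide, since Acer2 exceeded Asah1 by 0.74 to 1.52 and Acer3 by 0.81 to 1.57. Of 12317 genes with a single row and a value in all 5 tables, 68 (0.552%) were at least 2-fold higher in Lung met in each, and Acer2 was 1 of them and the only member.

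The genes whose log2 ratios differed least from those of Acer2 over the 5 tables, by root mean square difference, were Il7r at 0.13, Gsap at 0.16, Mgp at 0.17, Gem at 0.17 and Tmem204 at 0.27. Il7r encodes the interleukin-7 receptor of lymphocytes, and Mgp a matrix protein that limits calcification. Il7r had log2 ratios of 1.05 in Her2, 0.99 in C3Tag, 0.95 in BALB, 1.34 in SEAGN and 1.87 in AKR-named. S1pr1 ranked 17 among the genes by this measure with a difference of 0.35, and the next member, Asah1, ranked 1415 with 1.10. The likeness rests on 5 pairs of means and says nothing of shared control.

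Genes further along the pathway were read from lists, here and below, whose counts were not tested against the shares of all genes. Of all genes, 2.38% were 2-fold higher in Her2, 7.42% in C3Tag, 2.26% in BALB, 2.86% in SEAGN and 7.31% in AKR-named. Those 2-fold lower were 1.43%, 1.7%, 2.4%, 3.22% and 1.73% in the same order. In de novo ceramide synthesis, 13 to 15 of 17 genes were measured per table, 0 to 1 were 2-fold higher, 0 to 1 were 2-fold lower, and the list medians were 0.03 to 0.20. Its named gene, Cers3, a ceramide synthase for very long acyl chains, had log2 ratios of 1.59 in BALB, 1.92 in SEAGN and 0.56 in AKR-named but -1.32 in C3Tag. In sphingomyelin synthesis and breakdown, 3 of 8 measured genes were 2-fold higher in C3Tag, 1 of 7 in BALB and 0 in the other tables, and none was 2-fold lower. With a pseudocount of 1 the BALB count was 0. Smpd3, a neutral sphingomyelinase that releases ceramide, went from 44.5 to 304 in C3Tag, a log2 ratio of 2.77, and had 0.97 in Her2, 1.04 in BALB and 0.53 in SEAGN. The medians of that list ran from -0.0065 in Her2 to 0.82 in C3Tag.

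Among glycosphingolipid genes, 3 of 18 were 2-fold higher in C3Tag, 2 of 19 in AKR-named, 1 of 18 in SEAGN and 0 of 18 in Her2 and in BALB, and none was 2-fold lower. The C3Tag count was 2 with either pseudocount or median centring, 15 scaled to sums and 1 scaled to sums without the 2 genes that led its PT sum. The medians ran from 0.07 in SEAGN to 0.46 in C3Tag. Gal3st1, which makes sulfatide, had values in 2 tables, with means of 39.0 and 78.5 in C3Tag and 6.99 and 78.5 in AKR-named. For ceramide transfer and phosphorylation, with medians of -0.08 to 0.28, no gene reached 2-fold in either direction. Cerk, the ceramide kinase, had log2 ratios of 0.15 in Her2, 0.67 in C3Tag, 0.48 in BALB, 0.27 in SEAGN and 0.60 in AKR-named.

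The remaining ceramidase, phosphatase, carrier and receptor genes held 3 of 10 past 2-fold in Her2, 1 of 11 in C3Tag, 0 of 8 in BALB, 2 of 11 in SEAGN and 3 of 9 in AKR-named, each higher in Lung met. Their medians ran from 0.08 in AKR-named to 0.52 in C3Tag, and a pseudocount of 10 left 1 gene past 2-fold in Her2 and 1 in SEAGN. Sgpp2, the second S1P phosphatase, had means of 21.3 and 64.1 in Her2, 81.7 and 431 in C3Tag, 34.9 and 60.0 in BALB, 26.4 and 114 in SEAGN and 16.8 and 374 in AKR-named. Its log2 ratio was 1.59, 2.40, 0.78, 2.11 and 4.48 in that order, above that of Acer2 in each table but BALB. S1pr4, a receptor of leukocytes, had log2 ratios of 1.17 in Her2, 0.74 in C3Tag, 1.30 in SEAGN and 2.87 in AKR-named, on low means of 3.48 to 20.5 in PT.

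Markers of other cells moved with the tissue as well. Of 10 endothelial markers, 3 were 2-fold higher in Her2, 7 in C3Tag, 2 in BALB, 2 in SEAGN and 9 in AKR-named, and none was 2-fold lower. Over all genes, 2.38%, 7.42%, 2.26%, 2.86% and 7.31% were 2-fold higher in the same order. The list median was 0.73 in Her2, 1.37 in C3Tag, 0.62 in BALB, 0.64 in SEAGN and 1.71 in AKR-named, and its summed mean ranged from 1111 to 4044 in PT and from 1766 to 10340 in Lung met. S1pr1 differed from that median by -0.04, 0.0029, 0.21, 0.62 and 0.43 in the same order, and Acer2 by 0.51, -0.27, 0.44, 0.71 and 0.016. Of all the marker lists, endothelium lay closest to S1pr1 in Her2 and C3Tag and to Acer2 in AKR-named. Elsewhere another list lay closer. For S1pr1 examples were myoepithelium in BALB (0.0058) and SEAGN (0.46), and NK cell in AKR-named (0.30). For Acer2 an example was alveolar type 2 in Her2 (0.0091). Among the endothelial markers, Emcn was lower in Lung met in BALB (-0.22) and SEAGN (-0.33), where the others were higher. All 10 were higher in the other tables.

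The alveolar type 1 list, which marks lung epithelium, had medians of 2.06 to 3.86, with 3 to 5 of 5 genes past 2-fold. Its summed mean, 2305 to 57906 in PT and 2703 to 55541 in Lung met over the tables, was mostly Aqp5 in PT and was lower in Lung met in Her2 (57906 to 55541) and BALB (3578 to 2703), where Aqp5 had ratios of 0.914 and 0.633. In the alveolar type 2 list 4 of 7 genes were measured, with medians from 1.24 in Her2 to 7.06 in C3Tag, and 3 or 4 of them were past 2-fold. Of 5 T cell markers, 2 to 5 were measured, and their medians ran from -0.31 in C3Tag to 1.43 in AKR-named. Of 6 fibroblast markers, 5 were 2-fold lower in Her2, SEAGN and AKR-named, 4 in BALB and 1 in C3Tag, against 1.43% to 3.22% of all genes. The fibroblast medians were -2.37 to -1.30 outside C3Tag and -0.03 in C3Tag. Pdgfra went the other way, with log2 ratios of 0.52 in Her2, 0.80 in C3Tag, 0.55 in BALB, 0.44 in SEAGN and 0.94 in AKR-named. In C3Tag 3 of the 6 fibroblast markers were higher in Lung met, namely Pdgfra, Dcn (0.75) and Col3a1 (0.01). The mammary luminal list had medians of -0.06 to 0.18 over genes that differed among themselves, since Krt19 had a log2 ratio of 3.81 in Her2 and 1.23 in BALB and Epcam -0.68 in C3Tag.

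Lists with few measured genes also differed between tissues. The lung capillary list, with 3 of 4 genes measured, had medians of 0.90 in Her2, 0.58 in C3Tag, 0.11 in BALB, -0.31 in SEAGN and 0.38 in AKR-named. Its gene Ednrb stood at -1.71 in BALB and -2.15 in SEAGN, while Gpihbp1 stood at 0.49 and 0.52 and Aplnr at 0.11 and -0.31. The endothelium median was above 0 in both tables. Alveolar macrophage genes, 1 or 2 of 3 measured and none in BALB, had log2 ratios of 2.67 to 5.83. The skeletal muscle medians were -3.71 in Her2, -4.66 in C3Tag, -4.67 in BALB and -3.25 in SEAGN, against 0.95 in AKR-named. They rest on 2 of 5 genes in BALB and 1 in SEAGN, and on low PT means of 1.59 to 20.3 in AKR-named. The myoepithelium medians were 1.12 in Her2, -1.09 in C3Tag, 0.82 in BALB, 0.80 in SEAGN and -0.35 in AKR-named. The part of these cell types in the Acer2 and S1pr1 values was not tested.

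**Figure D5:**
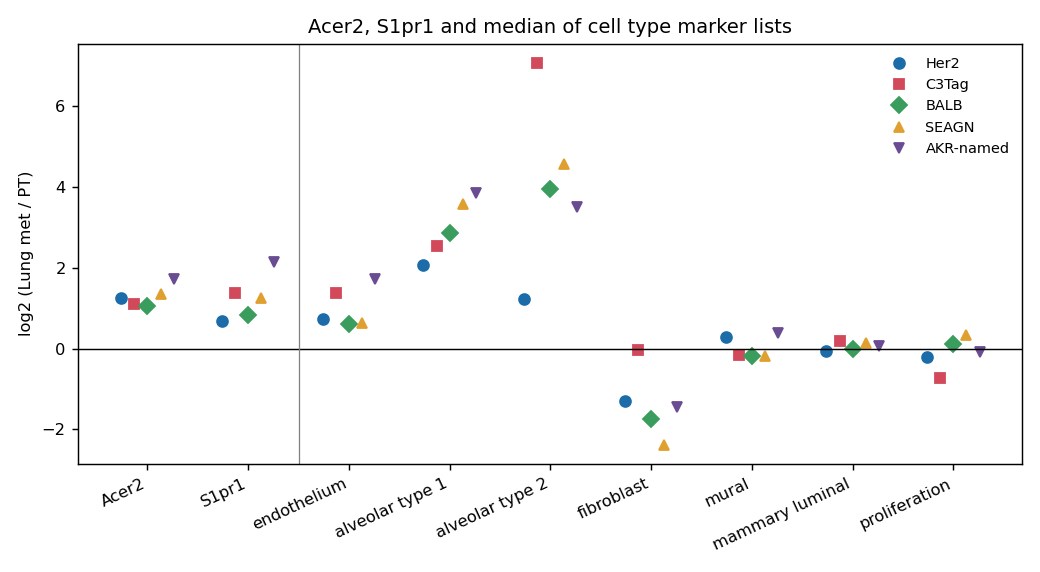
Log2 (Lung met / PT) of Acer2 and S1pr1 (left of the line) and the median log2 ratio of 7 marker lists (right), 1 symbol per table. The endothelium medians are 0.73 in Her2, 0.62 in BALB and 0.64 in SEAGN, below the lowest Acer2 value (1.06), and 1.37 in C3Tag and 1.71 in AKR-named. The alveolar type 1 medians (2.06 to 3.86) lie above Acer2 in each table, and the alveolar type 2 median of Her2 (1.24) lies beside it.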

How the data were processed

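The deposited signal was, for each gene, the authors' least-squares mean of normalized counts in PT and in Lung met, in 5 tables of comparisons. The submitters' processing notes name STAR 2.7.8a and mm39, while the study's methods describe Partek Flow and give both mm9 and mm10. BALB and SEAGN carry identifiers of the BALB/cJ annotation. Library notes differ too, naming a stranded total RNA kit in the labels and mRNA libraries in the methods. The tables also hold the authors' p-values, false discovery rates, ratios and fold changes from Gene Specific Analysis or DESeq2, none of which was used. The Myc table holds nothing else and was left out. Depth per sample is unknown, so no interval was computed.

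Log2 of the Lung met mean over the PT mean was taken with no pseudocount over all genes with both means (17270 to 19320 per table), and a gene was called past 2-fold. No test was run. Members and lists were chosen with earlier results of these data known. Pathway genes named beyond the members were list genes past 2-fold in at least 3 tables, otherwise the list gene with the largest absolute mean. The 5 genes closest to Acer2 were also named. Single cell type markers named in the text came from the marker lists and followed no such rule. Symbols with more than 1 row in a table were left out. Lengths and positions are GENCODE M21 (GRCm38), promoters RefSeq (8 of 10 members had an entry). The steps were run on simulated means with exact folds beyond 2 and no spread, and all 200 changed genes per table were recovered. This checks the arithmetic only and says nothing of how reliable a 2-fold call is. Computations ran in Python 3.11.15 with numpy 2.4.6 and pandas 2.3.3, and plots in matplotlib 3.10.9. The alternatives tried were pseudocounts of 1 and 10, centring on the median, scaling to sums, a mean of at least 10, rows with a symbol and a fold of 1.5.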

Additional observations from a re-analysis of the deposited data

How the results depend on the processing

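Acer2 stayed at least 2-fold higher in Lung met in all 5 tables under each alternative that was run, and no member past 2-fold turned its sign. In BALB Acer2 did so narrowly, with log2 ratios of 1.003 scaled to sums and 1.02 with a pseudocount of 10. With no replicate spread available, a log2 value was read as moved at a shift of 0.1 or more. Dividing by table sums moved all log2 ratios of C3Tag by 0.80 and of AKR-named by -0.11, the former because 2 genes, Gm22614 and Gm25890, held 43.8% of its PT sum. Acer2 then stood at 1.90 and 10 members were past 2-fold in C3Tag. With these 2 genes left out of the sums, an alternative chosen after seeing the data, C3Tag again had 3 members past 2-fold. In AKR-named either scaling gave Acer2 a log2 ratio of 1.62. A fold of 1.5 counted 2 members higher in Her2, 2 higher and 1 lower in BALB, and 4 higher in AKR-named. The share of all genes past 1.5-fold was not computed, so these counts cannot be set against it. Of the 5 genes closest to Acer2, 3 were shared with a pseudocount of 10, 4 by the largest absolute difference, and 5 under each other alternative. No paired analysis was possible because the tables hold group means only, and for the same reason leaving out replicates was not run.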
